A study of Branchiostoma lanceolatum with 24 samples.

Results

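Of 96094 transcript contigs counted in amphioxus embryos, 88 were abundant at 8 hours post fertilization (hpf) in both SU5402 and DMSO embryos, fell at least 4-fold by 14 hpf in DMSO embryos and were held at a higher level in SU5402 embryos at that time. They were chosen from counts per 1e6 reads (CPM), each count divided by the total of its library, by 4 limits. The mean of the DMSO libraries at 8 hpf was at least 10 CPM and at least 4 times their mean at 14 hpf. At 14 hpf the lower SU5402 library was at least 2 times the higher DMSO library. At 8 hpf the ratio of the SU5402 mean to the DMSO mean lay between 0.8 and the reciprocal of 0.8. In all, 1284 contigs showed the fall in DMSO embryos, and 532 of them also met the limits on the ratio at 8 hpf. The 444 of these 532 that missed the limit at 14 hpf are called the other shut-down contigs. The values at 8 and 14 hpf chose the contigs, so they are described here without a test, and tests were run on libraries that took no part in the choice.

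The inhibitor SU5402 occupies the kinase domain of fibroblast growth factor (FGF) receptors and blocks their signalling, and it is known to act on some other receptor kinases as well. FGF ligands bind receptor tyrosine kinases at the cell surface, and the signal runs through Ras and the MAP kinase ERK to transcription factors in the nucleus. In chordate embryos this pathway is known for its part in mesoderm formation and in the patterning of the body axis. Transcripts that are plentiful at the start of development and then disappear include maternal RNAs that are broken down and zygotic RNAs that are transcribed for a short time. Which kind each of the 88 contigs is cannot be told from these counts.

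Branchiostoma lanceolatum, the European amphioxus, is a cephalochordate, and each library came from a mix of its whole embryos. Embryos of the early series were kept with 50 µM SU5402 or with 0.1% DMSO from 5 hpf and collected at 8, 11 and 14 hpf, after 3, 6 and 9 h. Embryos of the late series were kept with the same agents from 15.5 hpf and collected at 18.5, 21.5 and 24.5 hpf, again after 3, 6 and 9 h. Each of the 12 groups had 2 libraries, 24 in all. DMSO is the control, and no untreated embryos are among the samples. Reads were counted on contigs of a transcriptome, and the counts carry contig identifiers and no gene names. None of the identifiers (0 of 96094) matched the RefSeq gene table for the species, so the contigs are given without gene, position or function. One gene can yield several contigs, and near-identical copies can share reads. Strand was not marked, so overlapping genes cannot be told apart.

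Library totals ran between 10866511 and 18924324 reads in the 8 libraries of 6 h exposure and between 27687922 and 39988564 in the other 16. The 6 h libraries were amplified with 15 PCR cycles and the others with 12, so a step in time within a series is also a step in cycle number, while SU5402 and DMSO libraries of the same time share it. Counts of the 2 libraries of a group differed by more than sampling noise in every group. Their chi-square per degree of freedom was 7.50 to 17.9 in the early series and 1.32 to 5.69 in the late series. Whether the libraries of a group stem from different spawnings or dishes is not in the labels, and the p-values therefore reflect only library-to-library spread, which may be technical.

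The 88 contigs started level at 8 hpf and were apart at 14 hpf, as the choice required. At 8 hpf the median contig had 22.6 CPM in SU5402 embryos and 22.1 CPM in DMSO embryos. At 11 hpf the median was 14.1 CPM in SU5402 embryos and 7.27 CPM in DMSO embryos, and at 14 hpf it was 5.77 CPM in SU5402 embryos and 1.61 CPM in DMSO embryos. Together the 88 contigs held 0.886% to 0.916% of the reads of a SU5402 library at 8 hpf, against 0.864% to 0.887% in DMSO. They held 0.626% to 0.665% at 11 hpf with SU5402, against 0.381% to 0.393% with DMSO. At 14 hpf they held 0.281% to 0.285% with SU5402, against 0.0903% to 0.0981% with DMSO. In whole embryos, fewer cells that hold a transcript and less of it per cell cannot be told apart.

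**Figure D1:**
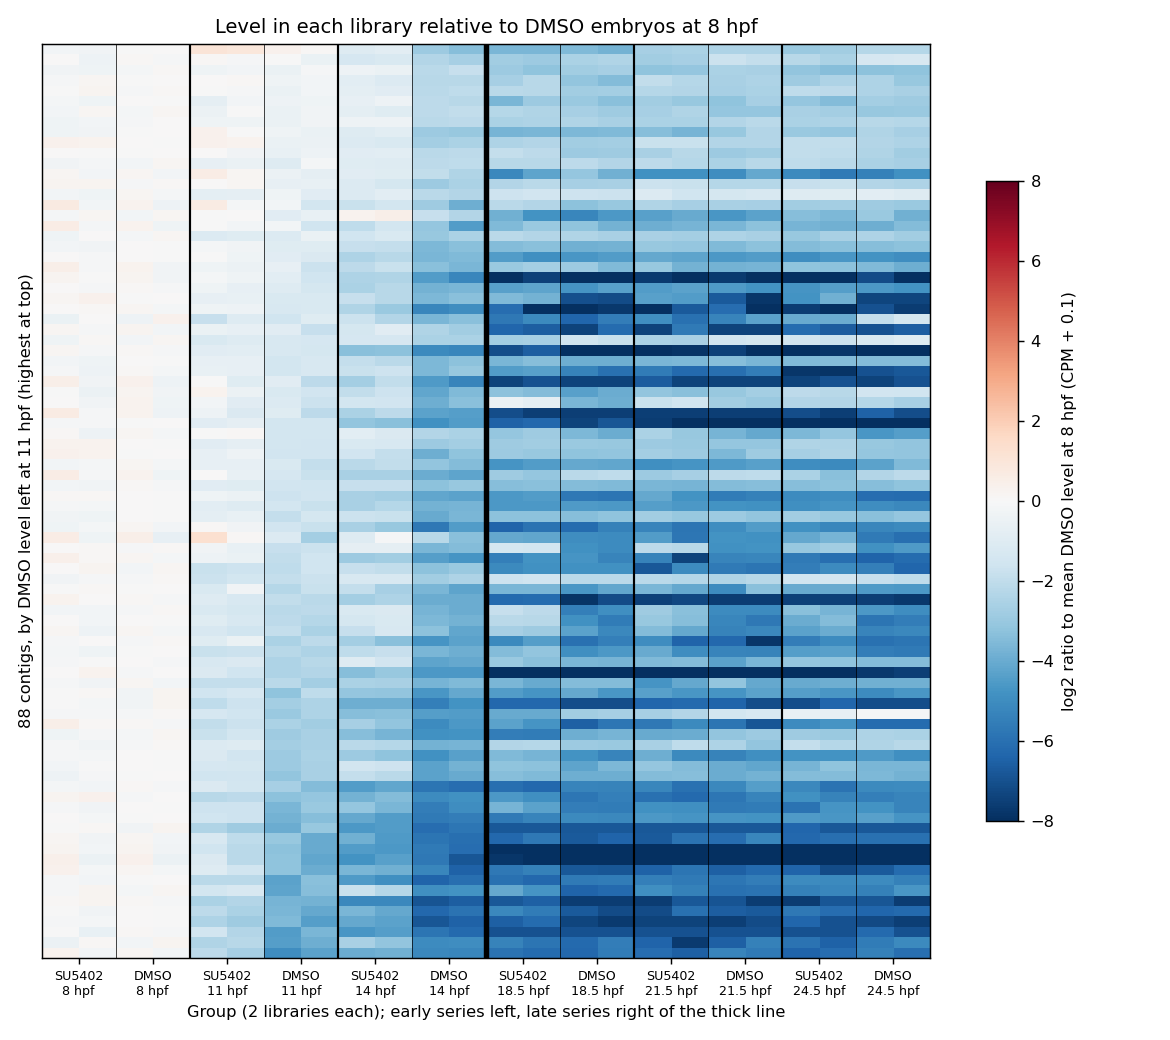
Level of the 88 contigs (1 per row) in each of the 24 libraries (columns, SU5402 left of DMSO at each time), as log2 of CPM plus 0.1 over the same for the mean of the DMSO libraries at 8 hpf. Rows are ordered by the share of the 8 hpf level that DMSO embryos held at 11 hpf, and at 14 hpf the SU5402 columns are less depleted than the DMSO columns, as the choice required.

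Most of these contigs fell in SU5402 embryos too. By 14 hpf they had fallen less far than in DMSO embryos, which follows from the limits at 8 and 14 hpf. From 8 to 14 hpf the median contig fell 4.22-fold in SU5402 embryos (range 0.785 to 48.6) and 14.6-fold in DMSO embryos (range 4.07 to 242). The first 3 hours of that interval brought a median fall of 1.75-fold in SU5402 embryos and 3.05-fold in DMSO embryos. The second 3 hours brought 2.71-fold in SU5402 embryos and 4.28-fold in DMSO embryos. By 11 hpf, 39 of the 88 contigs were down at least 2-fold in SU5402 embryos, against 68 in DMSO embryos. By 14 hpf, 72 were down at least 2-fold and 47 at least 4-fold in SU5402 embryos, and all 88 were down at least 4-fold in DMSO embryos, as the choice required. A median of 23.7% of the 8 hpf level was left at 14 hpf in SU5402 embryos and 6.85% in DMSO embryos.

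The levels with SU5402 can also be set against those of DMSO embryos 3 h younger. At 14 hpf, 69 of the 88 contigs were lower in SU5402 embryos than in DMSO embryos at 11 hpf, and 19 were higher. The median ratio of SU5402 at 14 hpf to DMSO at 11 hpf was 0.710. For most of the contigs the level at 14 hpf with SU5402 lay between the DMSO levels at 11 and 14 hpf. The choice itself put it above the DMSO level at 14 hpf. Only its place against the DMSO level at 11 hpf was not fixed, and that too uses values that chose the contigs. These comparisons cross the change in PCR cycles. At 14 hpf, 7 contigs were under 1 CPM in SU5402 embryos and 33 in DMSO embryos, and 29 were at 10 CPM or more in SU5402 embryos and 12 in DMSO embryos. The ratio of SU5402 to DMSO at 14 hpf had a median of 3.08 and ran from 2.13 to 8.19, with 31 contigs at 4 or more.

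A few contigs did not follow a steady fall, and they are named here because of their values. ContigAmph8000 was the only one of the 88 that was higher at 11 than at 8 hpf in DMSO embryos. It had 99.98 and 96.9 CPM in SU5402 libraries at 8 hpf, against 115 and 121 CPM in DMSO, and 246 and 218 CPM in SU5402 libraries at 11 hpf, against 152 and 126 CPM in DMSO. At 14 hpf it had 57.8 and 66.6 CPM in SU5402 libraries, against 15.5 and 11.2 CPM in DMSO libraries. It thus peaked at 11 hpf in both kinds of embryo. In SU5402 embryos 11 contigs were higher at 11 than at 8 hpf, and 3 were higher at 14 than at 11 hpf, ContigAmph55089, ContigAmph22771 and ContigAmph4918. ContigAmph4918 was the only one that SU5402 embryos held above its 8 hpf level at 14 hpf. It had 17.3 and 19.3 CPM in SU5402 libraries at 14 hpf, against 3.78 and 2.70 CPM in DMSO libraries, after 12.7 and 16.1 CPM with SU5402 at 8 hpf, against 12.1 and 16.1 CPM with DMSO.

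The 4 limits cut through a continuous spread of contigs. The lowest DMSO mean at 8 hpf inside the limit was 10.2 CPM for ContigAmph33714, and the highest outside it, among contigs that met all other limits, was 9.29 CPM for ContigAmph42885. The smallest fall in DMSO embryos inside the limit was 4.07-fold for ContigAmph92873, and the nearest outside was 3.97-fold for ContigAmph84901. The ratio of the lower SU5402 library to the higher DMSO library at 14 hpf was 2.00 for ContigAmph22552, just inside, and 1.99 for ContigAmph8863, just outside. At 8 hpf the ratio of means was 0.802 for ContigAmph86773 and 0.798 for ContigAmph71637 at the lower limit, and 1.24 for ContigAmph3629 and 1.26 for ContigAmph35430 at the upper one. The choice also depended on the scaling. With library sizes scaled by trimmed mean of M-values (TMM) factors, the same limits again chose 88 contigs, of which 60 were the same. Of the 28 left out, 14 missed the limit at 14 hpf and 15 the lower limit at 8 hpf. ContigAmph8000, ContigAmph8900, ContigAmph11992, ContigAmph12308, ContigAmph22552, ContigAmph86773 and ContigAmph92873 were among those 28.

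The most abundant of the 88 contigs at 8 hpf in DMSO embryos were ContigAmph1120 and ContigAmph14030. ContigAmph1120 had 2200 and 2109 CPM in SU5402 libraries at 8 hpf, against 1747 and 1731 CPM in DMSO libraries. At 11 hpf it had 2198 and 2080 CPM with SU5402, against 1227 and 1249 CPM with DMSO, and at 14 hpf 829 and 752 CPM with SU5402, against 266 and 304 CPM with DMSO. In SU5402 embryos it thus stayed at its starting level until 11 hpf, when DMSO embryos held 71.2% of theirs. ContigAmph14030 had 1362 and 1355 CPM with SU5402 at 8 hpf, against 1509 and 1449 CPM with DMSO, and 829 and 732 CPM with SU5402 at 11 hpf, against 523 and 438 CPM with DMSO. At 14 hpf it had 245 and 300.0 CPM with SU5402, against 109 and 114 CPM with DMSO. Unlike ContigAmph1120 it was already down in SU5402 embryos at 11 hpf, to 57.4% of its 8 hpf level, against 32.5% in DMSO embryos.

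The largest falls in DMSO embryos rest on very few reads at 14 hpf. ContigAmph87452 had 20.8 and 21.9 CPM in SU5402 libraries at 8 hpf, against 20.1 and 18.1 CPM in DMSO, and 0.449 and 0.431 CPM in SU5402 libraries at 14 hpf, against 0.0591 and 0.0989 CPM in DMSO. From 8 to 14 hpf the mean fell 48.6-fold in SU5402 embryos and 242-fold in DMSO embryos, where 5 reads were left over both libraries. From pooled reads, the ratio of SU5402 to DMSO at 14 hpf was 28 against 5 reads, or 5.65 in CPM. ContigAmph54084 fell 29.7-fold in SU5402 embryos and 138-fold in DMSO embryos, with 24 reads in SU5402 libraries and 5 in DMSO libraries at 14 hpf, a ratio of 4.84 in CPM. With so few reads both ratios are imprecise, and the choice of contigs required them to be high. Both contigs were thus nearly gone in SU5402 embryos as well.

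ContigAmph15001 and ContigAmph23493 had the largest ratios of SU5402 to DMSO at 14 hpf. ContigAmph15001 had 14.2 and 15.0 CPM in SU5402 libraries at 8 hpf, against 15.9 and 14.6 CPM in DMSO libraries, and 6.34 and 6.92 CPM with SU5402 at 11 hpf, against 2.70 and 3.21 CPM with DMSO. At 14 hpf it had 7.39 and 5.14 CPM with SU5402, against 0.739 and 0.791 CPM with DMSO, a ratio of means of 8.19. The SU5402 embryos hardly moved between 11 and 14 hpf, with a fall of 1.06-fold, while DMSO embryos fell 3.86-fold. ContigAmph23493 had 37.0 and 45.5 CPM with SU5402 at 8 hpf, against 35.0 and 44.2 CPM with DMSO, and 14.0 and 16.2 CPM with SU5402 at 11 hpf, against 2.04 and 3.71 CPM with DMSO. At 14 hpf it had 11.6 and 8.12 CPM with SU5402, against 1.21 and 1.32 CPM with DMSO, a ratio of means of 7.79. This contig was separated at 11 hpf already, with a ratio of means of 5.25.

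**Figure D2:**
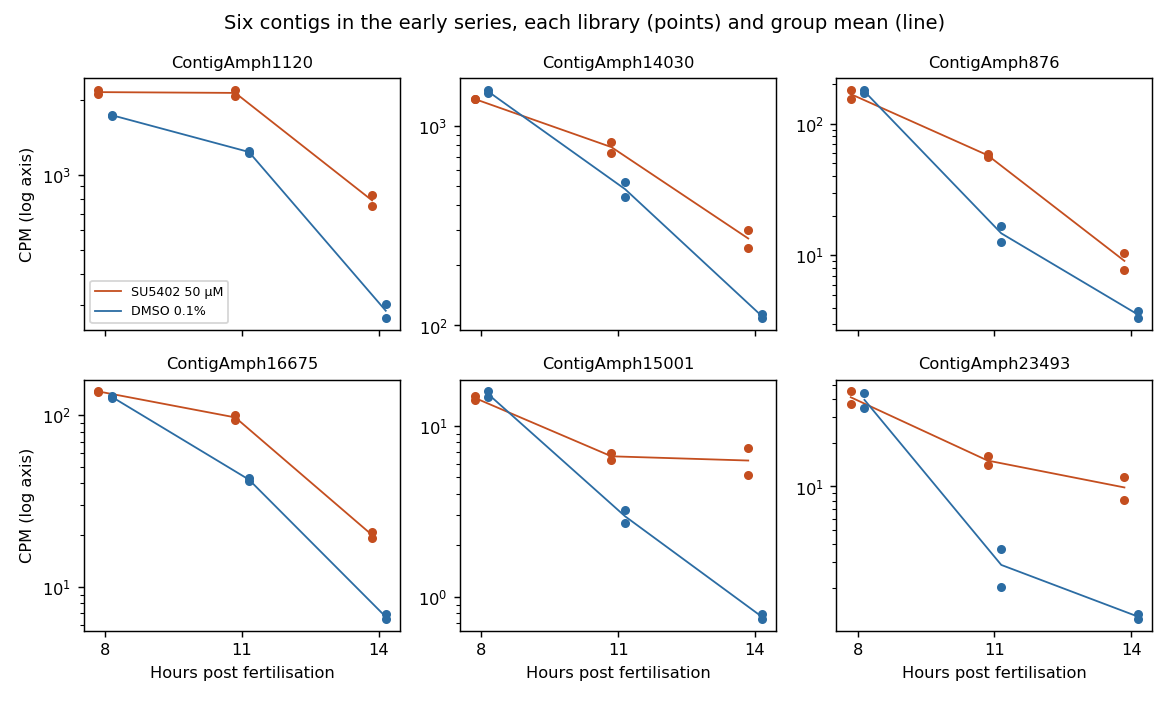
CPM (log axis) of ContigAmph1120, ContigAmph14030, ContigAmph876, ContigAmph16675, ContigAmph15001 and ContigAmph23493 at 8, 11 and 14 hpf, with each library as a point and a line through the means of SU5402 and of DMSO. The groups lie close together at 8 hpf in each panel, as the choice required, and the DMSO line lies below the SU5402 line at 11 hpf.

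The libraries at 11 hpf, after 6 h, took no part in the choice, and there the contigs were higher with SU5402 in many cases and lower in none. In an edgeR quasi-likelihood test of the 4 libraries at 11 hpf, with TMM factors and Benjamini-Hochberg adjustment over 55295 contigs at a threshold of 0.05, 48 of the 88 contigs (54.5%) were higher in SU5402 embryos and 0 were lower. Over all contigs tested, 13% were higher and 5.71% were lower. Of the 40 contigs not past the threshold, 34 had a log2 fold change above 0. The median log2 fold change was 0.85 over the 88 contigs and 0.04 over all contigs tested. An unadjusted p under 0.05 was reached by 62 of the 88 (70.5%), against 34% of all contigs. DESeq2 (Wald test) called 44 higher and 0 lower, against 9.44% and 5.21% of all contigs. In the 48 contigs the log2 fold change ran from 0.59 to 2.49.

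This count rests on few libraries, and on simulated counts a fit of this size made more false calls than its nominal rate. Without SU5402 replicate 1 the fit called 12 of the 88 contigs higher and 4.46% of all contigs, with the median log2 fold change of the 88 at 0.69. Without each of the other 3 libraries in turn the count stayed within 1.5 times of 48. With TMM factors taken from abundant contigs only, the median of all contigs moved to 0.23 and that of the 88 to 1.04, and 58 of the 88 and 15.9% of all contigs were higher.

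The members past the threshold with the smallest p at 11 hpf were ContigAmph876 and ContigAmph16675. ContigAmph876 had 59.3 and 55.9 CPM in SU5402 libraries at 11 hpf, against 12.6 and 16.8 CPM in DMSO libraries. Both SU5402 libraries were far above both DMSO libraries, and the log2 fold change was 1.93 (adjusted p = 0.0045, SE 0.18, edgeR). The contig fell steeply in both kinds of embryo, and at 14 hpf it had 10.4 and 7.76 CPM with SU5402, against 3.34 and 3.76 CPM with DMSO, after 181 and 155 CPM with SU5402 at 8 hpf, against 172 and 180 CPM with DMSO. ContigAmph16675 had 99.8 and 93.8 CPM in SU5402 libraries at 11 hpf, against 41.1 and 43.0 CPM in DMSO libraries, a log2 fold change of 1.16 (adjusted p = 0.0059, SE 0.124, edgeR). At 14 hpf it had 20.9 and 19.1 CPM with SU5402, against 6.91 and 6.46 CPM with DMSO.

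On the CPM scale, SU5402 over DMSO at 11 hpf had a median ratio of 1.86 over the 88 contigs and ran from 0.846 to 5.72. In 5 contigs the SU5402 mean at 11 hpf was under the DMSO mean, ContigAmph91681, ContigAmph7350, ContigAmph13089, ContigAmph82557 and ContigAmph8678, named for that value. None of these 5 passed the threshold in either direction. Across the 88 contigs the log2 ratios at 11 and at 14 hpf had a Pearson r of 0.436 and a Spearman rho of 0.446. That is a description over contigs that share their libraries and were chosen on the 14 hpf ratio, and contigs are not independent replicates.

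Of the 444 other shut-down contigs, 117 (26.4%) were higher with SU5402 at 11 hpf, 1 was lower and 326 did not pass the threshold, beside 13% higher and 5.71% lower over all contigs tested. Their median log2 fold change was 0.60. Their median fall from 8 to 11 hpf was 2.45-fold in SU5402 embryos and 4.06-fold in DMSO embryos. From 8 to 14 hpf it was 6.17-fold in SU5402 embryos and 7.23-fold in DMSO embryos, and the median ratio of SU5402 to DMSO at 14 hpf was 1.40. The last ratio differs from that of the 88 contigs through the limit that parted the lists, and the difference between the lists was not tested.

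**Figure D3:**
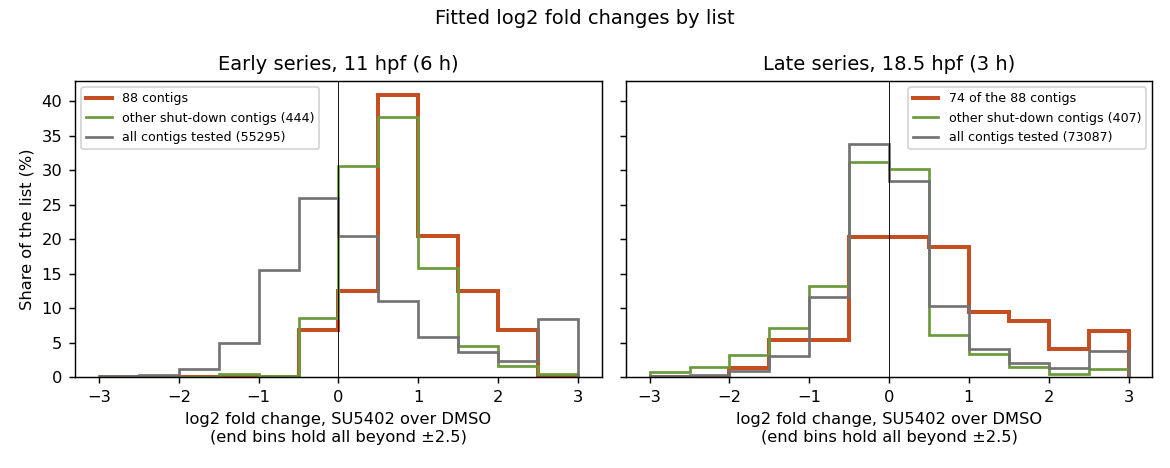
Share of contigs (percent, vertical axis) by log2 fold change of SU5402 over DMSO (horizontal axis) at 11 hpf after 6 h and at 18.5 hpf after 3 h of late treatment, for the 88 contigs, the 444 other shut-down contigs and all contigs tested, with the end bins holding all values beyond the axis. By their medians, at 11 hpf the 88 contigs centre on 0.85, the other shut-down contigs on 0.60 and all contigs on 0.04, and at 18.5 hpf the 74 tested of the 88 centre on 0.40.

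In DMSO embryos of the late series most of the contigs stayed low. Of the 88, 66 had a lower mean in DMSO embryos at 18.5 hpf than at 14 hpf. The median of the DMSO means was 0.918 CPM at 18.5 hpf, 0.846 CPM at 21.5 hpf and 1.16 CPM at 24.5 hpf. The late libraries were tested in 1 edgeR fit of all 12, over 73087 contigs. It tested 74 of the 88, and the other 14 had at most 14 reads in any late library and were left out, so the counts that follow do not cover them. ContigAmph54084 and ContigAmph87452 were among the 14.

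From 18.5 to 24.5 hpf, 17 of the 74 contigs (23%) rose and 10 (13.5%) fell in DMSO embryos, against 17.5% and 16% of all contigs tested, with a median log2 fold change of 0.14 against -0.02. ContigAmph11992 had 43.0 and 43.1 CPM in DMSO libraries at 24.5 hpf, against 6.57 and 7.16 CPM at 18.5 hpf, a log2 fold change of 2.55 (adjusted p = 2.1e-17, SE 0.1, edgeR). In CPM from library totals it was thus back near its DMSO level at 8 hpf, 43.2 and 50.0 CPM, after 2.07 and 2.01 CPM at 14 hpf. That depends on the scaling, as TMM factors were 0.738 and 0.789 for DMSO libraries at 8 hpf and 1.09 and 1.08 at 24.5 hpf. With these factors the level at 24.5 hpf lies further below that at 8 hpf. ContigAmph8900 had 8.45 and 8.09 CPM in DMSO libraries at 24.5 hpf, against 1.13 and 1.45 CPM at 18.5 hpf, a log2 fold change of 2.57 (adjusted p = 1.1e-12, SE 0.167, edgeR). These contigs and ContigAmph23980 were the 3 of 88 whose DMSO mean at 24.5 hpf was at least 4 times that at 14 hpf.

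The contigs that fell in DMSO embryos with the smallest p were ContigAmph14030 and ContigAmph12308. ContigAmph14030 had 47.7 and 40.8 CPM in DMSO libraries at 24.5 hpf, against 63.0 and 61.1 CPM at 18.5 hpf, a log2 fold change of -0.58 (adjusted p = 3.9e-06, SE 0.0851, edgeR). ContigAmph12308 had 0.283 and 0.455 CPM at 24.5 hpf, against 1.78 and 1.02 CPM at 18.5 hpf, a log2 fold change of -1.97 (adjusted p = 2e-04, SE 0.386, edgeR). The count of 10 that fell depended on single libraries. It was 5 without DMSO replicate 1 at 18.5 hpf, 4 and 6 without DMSO replicate 1 and replicate 2 at 24.5 hpf, and 3 with the DESeq2 Wald test, while 11.1% to 12.2% of all contigs fell without each of these libraries and 9.6% with DESeq2.

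When SU5402 was given only from 15.5 hpf, 32 of the 74 contigs (43.2%) were higher and 6 (8.11%) lower in SU5402 embryos 3 h later, at 18.5 hpf. Of the 88, 66 had a lower mean in DMSO embryos at 18.5 hpf than in DMSO embryos of the early series at 14 hpf. The median SU5402 level at 18.5 hpf was 1.76 CPM, against 1.61 CPM in DMSO embryos at 14 hpf. Both comparisons cross the series and were not tested. Over all contigs tested, 16.4% were higher and 14% lower. The median log2 fold change was 0.40 over the 74 and 0.00 over all contigs. Of the 32, 18 were more than 2-fold higher, a share similar to that over all contigs, with 6998 of the 11995 called higher. Among the other shut-down contigs more were lower than higher, with 49 of 407 higher (12%), 114 lower (28%) and a median of -0.09. The difference between the lists was not tested. With no filter on low counts, which adds the contigs with few reads, 32 of the 88 were higher and 7 lower, against 13.7% and 11.7% of all contigs, and the median of the 88 was 0.51. DESeq2 (Wald test) called fewer, 22 of the 74 higher and 5 lower, against 10.6% and 8.68% of all contigs.

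ContigAmph16938 and ContigAmph23409 had the smallest p of those higher at 18.5 hpf. ContigAmph16938 had 65.3 and 62.5 CPM in SU5402 libraries, against 5.99 and 5.30 CPM in DMSO libraries, a log2 fold change of 3.48 (adjusted p = 1.7e-18, SE 0.116, edgeR). In the early series it had ended at 108 and 107 CPM with SU5402 at 14 hpf, against 13.7 and 15.8 CPM with DMSO. ContigAmph23409 had 24.3 and 22.5 CPM in SU5402 libraries at 18.5 hpf, against 3.59 and 2.15 CPM in DMSO libraries, a log2 fold change of 3.03 (adjusted p = 1.6e-13, SE 0.176, edgeR). Both contigs were thus higher with SU5402 after a treatment that began when DMSO levels had fallen far. In DMSO embryos both were lower still at 18.5 than at 14 hpf.

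ContigAmph23980 and ContigAmph11992 moved the other way. ContigAmph23980 had 3.76 and 3.59 CPM in SU5402 libraries at 18.5 hpf, against 11.46 and 13.1 CPM in DMSO libraries, a log2 fold change of -1.77 (adjusted p = 8.6e-12, SE 0.125, edgeR). ContigAmph11992 had 2.71 and 2.77 CPM in SU5402 libraries, against 6.57 and 7.16 CPM in DMSO libraries, a log2 fold change of -1.35 (adjusted p = 6.1e-09, SE 0.134, edgeR). Each SU5402 library was below each DMSO library for both. In the early series at 14 hpf the SU5402 libraries had been the higher ones, with 16.8 and 13.2 CPM for ContigAmph23980, against 6.00 and 6.30 CPM in DMSO.

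After 6 h of late treatment, at 21.5 hpf, the shares came near those of all contigs. Of the 74, 10 (13.5%) were higher and 9 (12.2%) lower with SU5402, against 11% and 10.6% of all contigs tested, with a median log2 fold change of 0.08 against 0.02. The sign of that median depended on single libraries, with -0.08 without SU5402 replicate 1 and -0.01 without DMSO replicate 1. ContigAmph16938 had 41.6 and 37.6 CPM in SU5402 libraries, against 6.00 and 6.35 CPM in DMSO libraries, a log2 fold change of 2.62 (adjusted p = 5.7e-14, SE 0.137, edgeR). ContigAmph23409 had 13.2 and 10.1 CPM with SU5402, against 2.74 and 1.93 CPM with DMSO, a log2 fold change of 2.21 (adjusted p = 9e-08, SE 0.244, edgeR). ContigAmph11992 had 7.47 and 9.22 CPM with SU5402, against 16.5 and 19.0 CPM with DMSO, a log2 fold change of -1.16 (adjusted p = 4.6e-08, SE 0.123, edgeR). ContigAmph23980 had 10.5 and 11.3 CPM with SU5402, against 19.4 and 23.3 CPM with DMSO, a log2 fold change of -1.02 (adjusted p = 2.9e-07, SE 0.121, edgeR). The same 4 contigs thus led at 18.5 and 21.5 hpf.

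After 9 h, at 24.5 hpf, 17 of the 74 (23%) were higher and 13 (17.6%) lower with SU5402, against 11.7% and 11.2% of all contigs tested, with a median log2 fold change of 0.09 against 0.01. The count of 17 was 11 without SU5402 replicate 2, where 7.28% of all contigs were higher, 11 without DMSO replicate 2, with 6.95% of all contigs, and 11 with the DESeq2 Wald test, with 6.25%. ContigAmph16938 had 21.0 and 25.8 CPM with SU5402, against 6.01 and 7.49 CPM with DMSO, a log2 fold change of 1.73 (adjusted p = 9.8e-12, SE 0.118, edgeR). ContigAmph23409 had 6.64 and 9.43 CPM with SU5402, against 1.80 and 2.21 CPM with DMSO, a log2 fold change of 1.95 (adjusted p = 4.9e-08, SE 0.209, edgeR).

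The contigs lower at 24.5 hpf with the smallest p were ContigAmph22552 and ContigAmph91681. ContigAmph22552 had 12.6 and 10.3 CPM with SU5402, against 24.2 and 24.7 CPM with DMSO, a log2 fold change of -1.15 (adjusted p = 2.9e-09, SE 0.106, edgeR). ContigAmph91681 had 0.579 and 0.609 CPM with SU5402, against 2.83 and 3.96 CPM with DMSO, a log2 fold change of -2.56 (adjusted p = 8e-08, SE 0.283, edgeR). Both had risen in DMSO embryos since 18.5 hpf, when their DMSO libraries had 10.4 and 11.3 CPM for ContigAmph22552 and 0.0342 and 0.135 CPM for ContigAmph91681. The DMSO libraries at 24.5 hpf enter both that rise and the SU5402 comparison, so the comparisons are not independent.

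Over the 3 late times, 34 of the 74 contigs (45.9%) were higher with SU5402 at some time, 16 (21.6%) were lower at some time and 26 (35.1%) passed the threshold at none. Over all 73087 contigs tested, 24.4% were higher at some time, 23% were lower at some time and 54.7% passed at none. The member counts of 34 and 16 share ContigAmph3663 and ContigAmph8900, both higher at 18.5 hpf and lower at 24.5 hpf. Of the 34, 9 (12.2% of the 74, against 4.59% of all contigs) were higher at all 3 times, and 6 of these 9 were higher at 11 hpf as well. Lower at all 3 times were 5 (6.76%, against 3.56% of all contigs), ContigAmph22552, ContigAmph11992, ContigAmph23980, ContigAmph6222 and ContigAmph3629. Of the 48 contigs higher at 11 hpf, 19 were higher at 18.5 hpf, 4 were lower, 18 did not pass the threshold and 7 were not tested. Of the 40 others, 13 were higher, 2 were lower, 18 did not pass and 7 were not tested. The 19 shared contigs made up 39.6% of the 48 and 59.4% of the 32. This lies near the members' own shares, 43.2% of the 74 higher at 18.5 hpf and 54.5% of the 88 higher at 11 hpf. Over all contigs, 2619 were higher at both times, 36.5% of those higher at 11 hpf and 21.8% of those higher at 18.5 hpf.

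**Figure D4:**
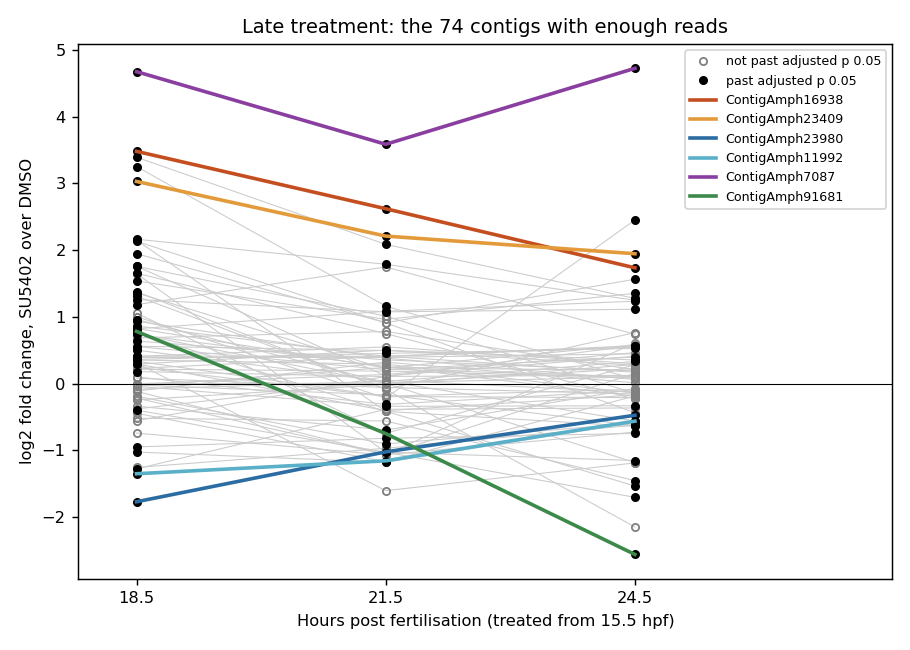
Log2 fold change of SU5402 over DMSO (vertical axis) at 18.5, 21.5 and 24.5 hpf for the 74 contigs tested in the late series, each a line, with 6 in colour and filled points for values past the threshold. ContigAmph16938 and ContigAmph23409 stay above 0 at each time, ContigAmph23980 and ContigAmph11992 stay below 0, and most lines lie near 0 at 21.5 hpf.

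The effects of 6 h of SU5402 in the late and in the early series were set against each other in 1 edgeR fit of the 8 libraries of 6 h exposure, which share PCR cycles, over 67131 contigs with all 88 tested. The late effect was higher than the early one in 3 of the 88 contigs (3.41%) and lower in 13 (14.8%), against 3.93% and 4.07% of all contigs tested. The median difference of the log2 fold changes was -0.76 over the 88 and 0.04 over all contigs. The 88 include the 14 contigs with too few reads for the late fit, which entered this fit through their reads at 11 hpf. Their late effect rests on almost no reads. The 88 were also chosen for a higher level with SU5402 at 14 hpf, which can favour a lower late effect. Among the other shut-down contigs 3 of 444 (0.676%) were higher and 108 (24.3%) lower, with a median of -0.71, and the difference between the lists was not tested. The spread between replicates was far larger in the early series, with a biological coefficient of variation of 26% in the fit at 11 hpf, against 6.83% in the late fit. A limma-voom fit with a variance weight for each series called 3 of the 88 higher and 19 lower, against 4.34% and 5.82% of all contigs.

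The 3 contigs with a higher late effect were ContigAmph16938, ContigAmph7087 and ContigAmph23409. For ContigAmph16938 the difference of log2 fold changes was 1.33 (adjusted p = 0.0043, SE 0.2, edgeR). Its early levels at 11 hpf were 145 and 116 CPM with SU5402, against 49.0 and 52.8 CPM with DMSO. ContigAmph7087 had 0.982 and 0.922 CPM with SU5402 at 21.5 hpf, against 0.116 and 0 CPM with DMSO, and 14.0 and 14.4 CPM with SU5402 at 11 hpf, against 9.35 and 9.64 CPM with DMSO. Its difference of log2 fold changes was 3.02 (adjusted p = 0.019, SE 0.63, edgeR), and the late side rests on 27 reads with SU5402 and 2 with DMSO, a ratio of 13.4 in CPM (exact 95% interval 3.36 to 116, counting error only). At the other late times it had 94 reads with SU5402 and 4 with DMSO at 18.5 hpf, and 67 with SU5402 and 2 with DMSO at 24.5 hpf. Its difference between the series did not pass the threshold with the DESeq2 Wald test, nor without SU5402 replicate 1, SU5402 replicate 2 or DMSO replicate 2 at 21.5 hpf.

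Of the 13 contigs with a lower late effect, 10 were higher at 11 hpf, and at 21.5 hpf 7 were lower with SU5402, 6 did not pass the threshold and 0 were higher. The same libraries gave the test of the difference, so this pattern follows in part from how the 13 were called. It is no further support for the difference. For ContigAmph23980 the difference was -2.05 (adjusted p = 0.00073, SE 0.208, edgeR), with 50.8 and 63.1 CPM with SU5402 at 11 hpf, against 23.97 and 29.2 CPM with DMSO. SU5402 libraries were the higher ones at 11 hpf and the lower ones at 21.5 hpf. For ContigAmph11992 it was -2.30 (adjusted p = 0.0015, SE 0.276, edgeR), with 18.0 and 15.4 CPM with SU5402 at 11 hpf, against 5.99 and 8.37 CPM with DMSO. Both counts moved when a library was left out. The 3 became 1 without SU5402 replicate 1, SU5402 replicate 2 or DMSO replicate 2 at 21.5 hpf, and 2 without DMSO replicate 1 at 21.5 hpf or SU5402 replicate 2 at 11 hpf. The 13 became 6 and 4 without SU5402 replicate 1 and replicate 2 at 21.5 hpf, 5 without either DMSO library at 21.5 hpf, and 8 without SU5402 replicate 1 at 11 hpf. Over all contigs, 0.838% to 1.07% were higher and 1.07% to 1.26% lower without a library of 21.5 hpf.

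**Figure D5:**
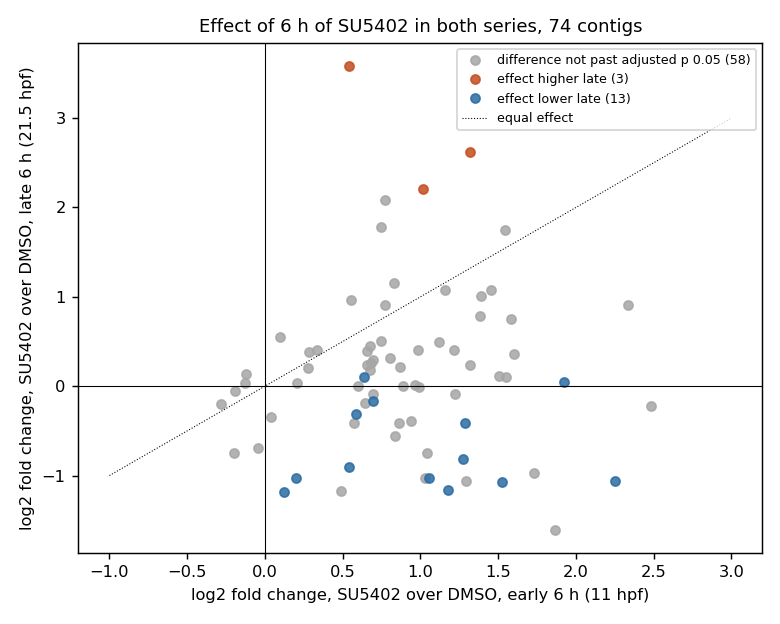
Log2 fold change of SU5402 over DMSO after 6 h in the late series at 21.5 hpf (vertical axis) against that after 6 h in the early series at 11 hpf (horizontal axis) for the 74 contigs tested in both. Coloured points are the 3 contigs whose late effect was higher and the 13 whose late effect was lower in the test of the difference, and most of the 74 lie to the right of 0 on the horizontal axis.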

How the data were processed

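The deposited table holds raw read counts per transcriptome contig, made by the authors with BWA 0.6.1 per the submitters' processing notes. For the assembly and the counting rule, a description was not given in the sources used here. Per the labels' protocols, mRNA was taken with oligo-dT and libraries were not stranded. No columns were left unused. Levels are CPM from library totals. Tests used edgeR 4.0.16 (glmQLFit, glmQLFTest, two-sided) in R 4.3.3 on counts kept by filterByExpr (minimum count 10, minimum total 15) with TMM factors (0.738 to 1.22), over the whole table, with p-values adjusted within each comparison at 0.05. The SE is the log2 fold change divided by the square root of F. Alternatives used limma 3.58.1 and DESeq2 1.42.0. On simulated counts the early fit of 4 libraries made more false calls than its nominal rate and the late fit did not. The contigs, tests and naming rule were chosen with earlier results of these data known. The rule named the 2 most extreme contigs for each chosen value, those nearest each limit, and in each test the 2 with the smallest p in each direction. Contigs named outside it were chosen after their values were seen. No contig sequences were used here.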

Additional observations from a re-analysis of the deposited data

Results flagged for a closer look

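The effect of 6 h of SU5402 differed between the late and the early series by a test of the difference itself (edgeR). It was higher in the late series for 3 of the 88 contigs (3.41%) and lower for 13 (14.8%), against 3.93% and 4.07% of all contigs tested. Among the 444 other shut-down contigs 0.676% were higher and 24.3% lower, so a lower late effect was not particular to the 88. The difference between the lists was not tested. For 14 of the 88 the late effect rests on almost no reads. Both counts of the 88 dropped without 1 library of 21.5 hpf, and so did the shares of all contigs. Among those named, the difference of log2 fold changes, late minus early, was 1.33 for ContigAmph16938, 3.02 for ContigAmph7087, -2.05 for ContigAmph23980 and -2.30 for ContigAmph11992. The value of ContigAmph7087 rests on 27 reads with SU5402 and 2 with DMSO at 21.5 hpf, and it did not pass the threshold with the DESeq2 Wald test or without any of 3 of the 4 libraries of that time (SU5402 replicate 1, SU5402 replicate 2, DMSO replicate 2).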

How the results depend on the processing

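Every group had 2 libraries, so leaving 1 out left a group with 1, assumed to vary like the other groups. Leaving out each library in turn gave 12 to 54 contigs higher and 0 lower at 11 hpf, 23 to 29 higher and 5 to 6 lower at 18.5 hpf, 7 to 11 and 6 to 7 at 21.5 hpf, and 11 to 16 and 10 to 11 at 24.5 hpf. In DMSO embryos it gave 15 to 18 that rose and 4 to 8 that fell, and for the late against the early effect 1 to 3 higher and 4 to 16 lower. The DESeq2 Wald test gave 11 higher at 24.5 hpf and 3 that fell in DMSO embryos, with 6.25% and 9.6% of all contigs. The median log2 fold change at 21.5 hpf ran from -0.08, without SU5402 replicate 1, to 0.13, and was -0.01 without DMSO replicate 1. The causes were not tested. In the choice of contigs, a ratio at 8 hpf of 0.67 to 1.5 gave 148, a limit of 1.5 at 14 hpf gave 175, a limit of 3 gave 30, at least 20 CPM gave 48 and at least 5 CPM gave 126. Of the settings run on the counts of calls and of contigs, 150 stayed in direction and within 1.5 times, 16 were lower by more and 4 moved. With the replicate number as a block, 72 contigs were higher at 11 hpf, where 25.9% of all contigs were, and 3 were higher and 17 lower for the late against the early effect, with 5.3% and 5.2% of all contigs. Same-numbered libraries deviated together at 11 hpf (r = 0.681 over 17061 contigs) and not in the late comparisons (-0.0398 to 0.0491), and the labels do not say what the number marks. Few reads limit what the late libraries can show for the 14 contigs not tested.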
